A study of Mus musculus with 16 samples.

Results

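The 10 genes of hepatic bile acid handling examined here in mouse liver were 3 sinusoidal uptake transporters (Slc10a1, Slco1b2 and Slco1a1), 2 canalicular exporters (Abcb11 and Abcb4), 1 subunit of a sinusoidal efflux transporter (Slc51b), 2 conjugation enzymes (Slc27a5 and Baat) and 2 nuclear receptors (Nr1h4 and Nr0b2). They were taken by name from a table of 51912 genes, all 10 were found, and all 10 had enough counts to be tested among 14920 genes. The livers came from male mice that ate a low isoleucine diet or a control amino acid diet for 3 weeks, starting at an age of 10 weeks and ending at 13 weeks. A 16 h fast is given for the mice of every group, and livers were collected either after refeeding or at the end of the fast. This gave 4 groups of 4 libraries, which were low isoleucine refed, control refed, low isoleucine fasted and control fasted. Isoleucine is a branched-chain essential amino acid. The strain, the length of refeeding and the isoleucine content of the diets are not stated in the labels. Each library is from whole liver, so fewer cells of a type and less RNA per cell cannot be told apart.

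Hepatocytes take up bile acids from sinusoidal blood through a sodium-dependent carrier (Slc10a1, NTCP) and through organic anion transporting polypeptides (Slco1b2 and Slco1a1). Inside the cell, bile acids are linked to coenzyme A by Slc27a5 and then to taurine or glycine by Baat. Abcb11 (BSEP) pumps the conjugated bile salts into the bile canaliculus, and Abcb4 (MDR2 in mice) moves phosphatidylcholine into bile, where it protects the ducts from bile salts. Nr1h4 (FXR) is the nuclear receptor that bile acids activate. As a dimer with Rxra it is known to induce Nr0b2 (SHP), Abcb11 and Slc51b, and SHP in turn represses bile acid synthesis.

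Total counts ran from 24368656 to 34002955 per library. Refed libraries (13.7 to 42.8) and fasted libraries (-36.4 to -25.4) lay apart on the first principal component, which held 28.6% of the variance. Control refed library 4 stood apart, with the score of 13.7 and the highest TMM factor (1.21). It also had the highest summed levels of Kupffer cell and macrophage (435.8 CPM), stellate cell (623 CPM), sinusoidal endothelial cell (358.6 CPM) and lymphocyte and neutrophil markers (29.2 CPM) among the 16 libraries. CPM values are read counts relative to library size, scaled by TMM. Hepatocyte markers were abundant in every library, with summed levels from 76990 to 130500 CPM over the 9 markers of 10 found in the table. Each group carries a number of its own in its labels, and what it marks, if anything, cannot be told apart from diet and feeding state. The sources do not say more on how the livers of a group relate, so p-values measure the spread between these libraries.

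Levels of different genes were compared as CPM per kb of merged exon length, which joins the exons of all annotated transcripts of a gene. Over the 16 libraries Slc10a1 averaged 377 and Slc27a5 309 CPM per kb, followed by Slco1b2 at 233 and Baat at 144 CPM per kb. Nr1h4 averaged 72.9, Abcb11 49.3, Slco1a1 48 and Abcb4 39.9 CPM per kb. Nr0b2 was at 6.12 and Slc51b at 0.397 CPM per kb. With the 16 libraries of a gene pooled, neighbours in this order overlapped, except Baat with Nr1h4 and Abcb4 with Nr0b2. Only neighbours were compared in this way. It does not say whether genes further apart in the order, or genes within a group, overlapped. Abcb4 was close to Abcb11 in fasted livers, at 59.5 ± 3.51 against 58.4 ± 5.37 CPM per kb on the low isoleucine diet and 45.7 ± 4.68 against 44.6 ± 4.96 CPM per kb on the control diet (SD, n = 4 each). After refeeding Abcb4 was lower than Abcb11, at 27.8 ± 3.13 against 50.5 ± 7.78 CPM per kb on the low isoleucine diet and 26.5 ± 2.46 against 43.6 ± 4.15 CPM per kb on the control diet. The order of Abcb4 and Abcb11 rests on their merged lengths, 9383 and 5146 bases, and is uncertain. In CPM, without length, Abcb4 averaged 558 against 301 for Abcb11 in low isoleucine fasted and 428 against 230 in control fasted livers. In low isoleucine refed livers the CPM means were 260 and 260, and in control refed livers 249 and 224.

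**Figure D1:**
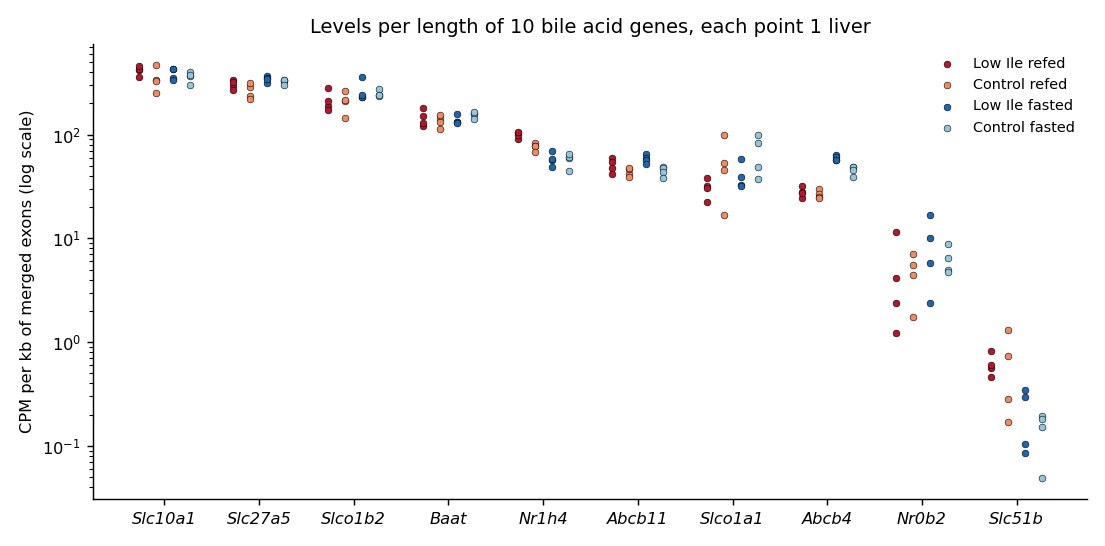
Levels of the 10 genes in CPM per kb of merged exons on a log axis, 1 point per liver, coloured by group. By group means Slc10a1 is the highest and Slc51b the lowest in every group, and the refed points of Abcb4 lie below its fasted points on each diet.

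In the GENCODE M21 annotation (GRCm38), looked up by gene identifier, Abcb4 (ENSMUSG00000042476) lies on chromosome 5 from 8893717 to 8959231, Nr1h4 (ENSMUSG00000047638) on chromosome 10 from 89454234 to 89533585, Slc51b (ENSMUSG00000053862) on chromosome 9 from 65412714 to 65422955 and Abcb11 (ENSMUSG00000027048) on chromosome 2 from 69238282 to 69342616. Slco1b2 (ENSMUSG00000030236, 141629518 to 141686646) and Slco1a1 (ENSMUSG00000041698, 141907282 to 141946962) lie near each other on chromosome 6. These coordinates are those of the annotation, since the labels do not name the build used for counting. Promoter sequences were available from RefSeq (GRCm38.p6) for 8 of the 10 genes, not for Baat and Slc27a5. The 250 bases before the start site were searched on both strands for AGGTCA, the half-site that many nuclear receptors bind, and for AGGTCANTGACCT with up to 2 mismatches, an inverted repeat spaced by 1 base (IR-1) that FXR with RXR is known to bind and that contains the half-site. Such an IR-1 match stood in the windows of Abcb11 and Slco1b2 and in 0.959% of all 32851 promoters, and a half-site stood in 14% of them. These sequences are shown because they belong to the 3 genes that passed in at least 1 feeding comparison (Abcb4, Nr1h4 and Slc51b) and to the 2 with an IR-1 match. Each is given 5′ to 3′ on the strand of its gene, ending at the base before the RefSeq start site (for Abcb4, Nr1h4 and Slc51b this lies inside the GENCODE gene), with half-sites and IR-1 matches in capitals.

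Abcb11, chr2:69342617-69342866, minus strand: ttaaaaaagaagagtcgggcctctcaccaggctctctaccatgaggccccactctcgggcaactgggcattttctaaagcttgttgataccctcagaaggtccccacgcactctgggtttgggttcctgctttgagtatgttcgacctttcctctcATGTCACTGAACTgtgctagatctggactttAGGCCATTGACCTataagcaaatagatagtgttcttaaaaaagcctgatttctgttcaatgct

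Slco1b2, chr6:141629268-141629517, plus strand: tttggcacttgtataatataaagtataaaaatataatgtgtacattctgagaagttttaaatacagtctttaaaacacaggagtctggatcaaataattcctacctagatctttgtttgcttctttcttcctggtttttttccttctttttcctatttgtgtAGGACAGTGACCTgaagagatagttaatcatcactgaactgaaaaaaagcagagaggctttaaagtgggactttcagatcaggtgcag

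Abcb4, chr5:8893471-8893720, plus strand: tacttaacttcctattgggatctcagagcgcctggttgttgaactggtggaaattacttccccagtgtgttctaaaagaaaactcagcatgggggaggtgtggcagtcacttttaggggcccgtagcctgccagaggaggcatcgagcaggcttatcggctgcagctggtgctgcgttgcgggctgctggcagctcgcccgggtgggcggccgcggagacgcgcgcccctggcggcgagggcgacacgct

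Nr1h4, chr10:89506659-89506908, minus strand: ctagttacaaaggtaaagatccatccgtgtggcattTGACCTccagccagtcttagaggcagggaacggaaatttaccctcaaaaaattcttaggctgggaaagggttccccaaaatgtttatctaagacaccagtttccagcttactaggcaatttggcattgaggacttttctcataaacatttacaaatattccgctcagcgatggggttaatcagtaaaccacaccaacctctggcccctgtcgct

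Slc51b, chr9:65422774-65423023, minus strand: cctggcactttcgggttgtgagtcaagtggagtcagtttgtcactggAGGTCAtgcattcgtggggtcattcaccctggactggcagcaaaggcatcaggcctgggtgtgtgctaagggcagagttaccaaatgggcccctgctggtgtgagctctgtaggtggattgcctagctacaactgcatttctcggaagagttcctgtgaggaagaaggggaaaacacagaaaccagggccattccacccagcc

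The Abcb11 window held 2 IR-1 matches with mismatches, which began 94 and 63 bases before the start site, and the Slco1b2 window held 1 match, which began 88 bases before it. The windows of Nr1h4 and Slc51b each held 1 half-site and no IR-1 match, and the Abcb4 window held neither. The forkhead letters GTAAACA, searched on both strands as well, stood in none of the 8 genes' windows and in 3.17% of all promoters. A match is a description of letters and was not tested as a binding site. Letters missing from a window say nothing of sites elsewhere in the gene.

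The comparison of refed with fasted livers asked how these genes differed with feeding state. Abcb4 fell and Nr1h4 rose after refeeding on each diet, but the Nr1h4 call on the control diet was lost without most single control libraries. Slc51b, a scarce transcript, passed on the control diet, a call that was lost without control refed library 4. The uptake carriers, Abcb11, both conjugation enzymes and Nr0b2 did not pass. On the low isoleucine diet 2 of the 10 genes passed an adjusted p of 0.05 (1 higher, 1 lower), where 21.4% of all 14920 genes passed. On the control diet 3 passed (2 higher, 1 lower), or 2 without control refed library 4, where 17.1% of all genes passed. Among the 3 is Slc51b, which the filter on low counts kept through its refed reads alone, so its call is no support for a change. The counts of 2 and 3 in 10 were near the shares of all genes. The median log2 fold change of the 10 genes was -0.19 on the low isoleucine diet and -0.22 on the control diet, against 0.02 and 0.013 over all genes tested.

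Abcb4, the phospholipid translocator, was at 228, 299, 260 and 255 CPM in the 4 low isoleucine refed livers, against 532, 597, 574 and 530 CPM in low isoleucine fasted livers. It was at 280, 253, 235 and 228 CPM in control refed livers, against 460, 365, 457 and 431 CPM in control fasted livers. On each diet every refed liver lay below every fasted liver, which was so, in either direction, for 24.6% of all genes on the low isoleucine diet and 19.1% on the control diet. The log2 fold change was -1.10 on the low isoleucine diet (SE 0.113, 95% interval -1.34 to -0.86, adjusted p = 5.67e-06 by edgeR's quasi-likelihood test with Benjamini-Hochberg adjustment). It was -0.78 on the control diet (SE 0.112, 95% interval -1.02 to -0.55, adjusted p = 0.000204). Abcb4 passed in each of 27 alternative analyses on each diet, and without control refed library 4 the control value was -0.75 (adjusted p = 0.000468). Abcb4 has similar relatives (Abcb1a and Abcb1b), and its estimated counts were not whole numbers in most libraries.

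Nr1h4, which encodes FXR, was at 241, 207, 226 and 243 CPM in low isoleucine refed livers, against 132, 159, 135 and 111 CPM in low isoleucine fasted livers. It was at 193, 178, 178 and 158 CPM in control refed livers, against 137, 140, 149 and 102 CPM in control fasted livers. All refed livers were above all fasted livers on each diet, a separation shown in either direction by 24.6% of all genes on the low isoleucine diet and 19.1% on the control diet. The log2 fold change was 0.78 on the low isoleucine diet (SE 0.128, 95% interval 0.50 to 1.05, adjusted p = 0.000467) and 0.42 on the control diet (SE 0.128, 95% interval 0.15 to 0.69, adjusted p = 0.0308). The call on the control diet did not hold in 6 of 27 alternatives. Some of the 27 left out a low isoleucine library, which is not in the compared groups. The call was lost with only the compared groups in the fit (adjusted p = 0.067). It was also lost without control fasted library 1 (0.0582) or 4 (0.101), or control refed library 1 (0.0787), 2 (0.061) or 3 (0.0642), all with positive values. Without control refed library 4 the value was 0.47 (adjusted p = 0.0243). Among the control libraries, the call held only without that one or without control fasted library 2 or 3.

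Slc51b encodes the beta subunit of the sinusoidal organic solute transporter, OST. It was counted with 20, 13, 11 and 15 reads in low isoleucine refed livers, against 2, 6, 2 and 8 reads in low isoleucine fasted livers. In control refed livers it had 13, 6, 3 and 37 reads, against 3, 4, 1 and 4 reads in control fasted livers. The low isoleucine groups did not overlap, as for 24.6% of all genes in either direction, and the control groups did. The liver with 37 reads was control refed library 4. The fitted log2 fold change was 2.12 on the control diet (SE 0.613, adjusted p = 0.0247) and 1.55 on the low isoleucine diet (SE 0.576, adjusted p = 0.0654). Without control refed library 4 the control value was 1.41 and did not pass (adjusted p = 0.116), and it did not pass without control fasted library 1 (adjusted p = 0.0589) or 3 (0.074) or by limma-voom (0.0676). On the low isoleucine diet the call appeared without control refed library 3 (adjusted p = 0.0427) or 4 (0.033), with only the compared groups (0.0297) and with a block for the replicate mark (0.0288). Per total count, the pooled reads gave a ratio of 3.21 on the low isoleucine diet (95% exact interval 1.87 to 5.78) and 5.28 on the control diet (2.81 to 10.8). These intervals cover counting error only and leave out the spread between livers. Of the 59 pooled control refed reads, 37 were from library 4. The intervals are therefore no support for a change. Slc51b had too few reads in fasted livers to pass the filter on low counts by them alone and was kept through its refed level. Its partner Slc51a (ENSMUSG00000035699), the alpha subunit without which the transporter is not known to work, had 0 reads in all 16 libraries, which allows at most 0.0882 to 0.123 CPM in a library (3 counts). Slc51b is also known from bile duct cells. The summed cholangiocyte markers (12 of 12 in the table, with none at 0 throughout and Sctr under 0.1 CPM) ran from 59 to 85.4 CPM in low isoleucine refed, 70.7 to 91.5 CPM in control refed, 48.9 to 69.4 CPM in low isoleucine fasted and 49 to 126 CPM in control fasted livers. Control refed library 4 was at 74 CPM of these markers, within the range of its group, and their part in the Slc51b values was not tested.

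**Figure D2:**
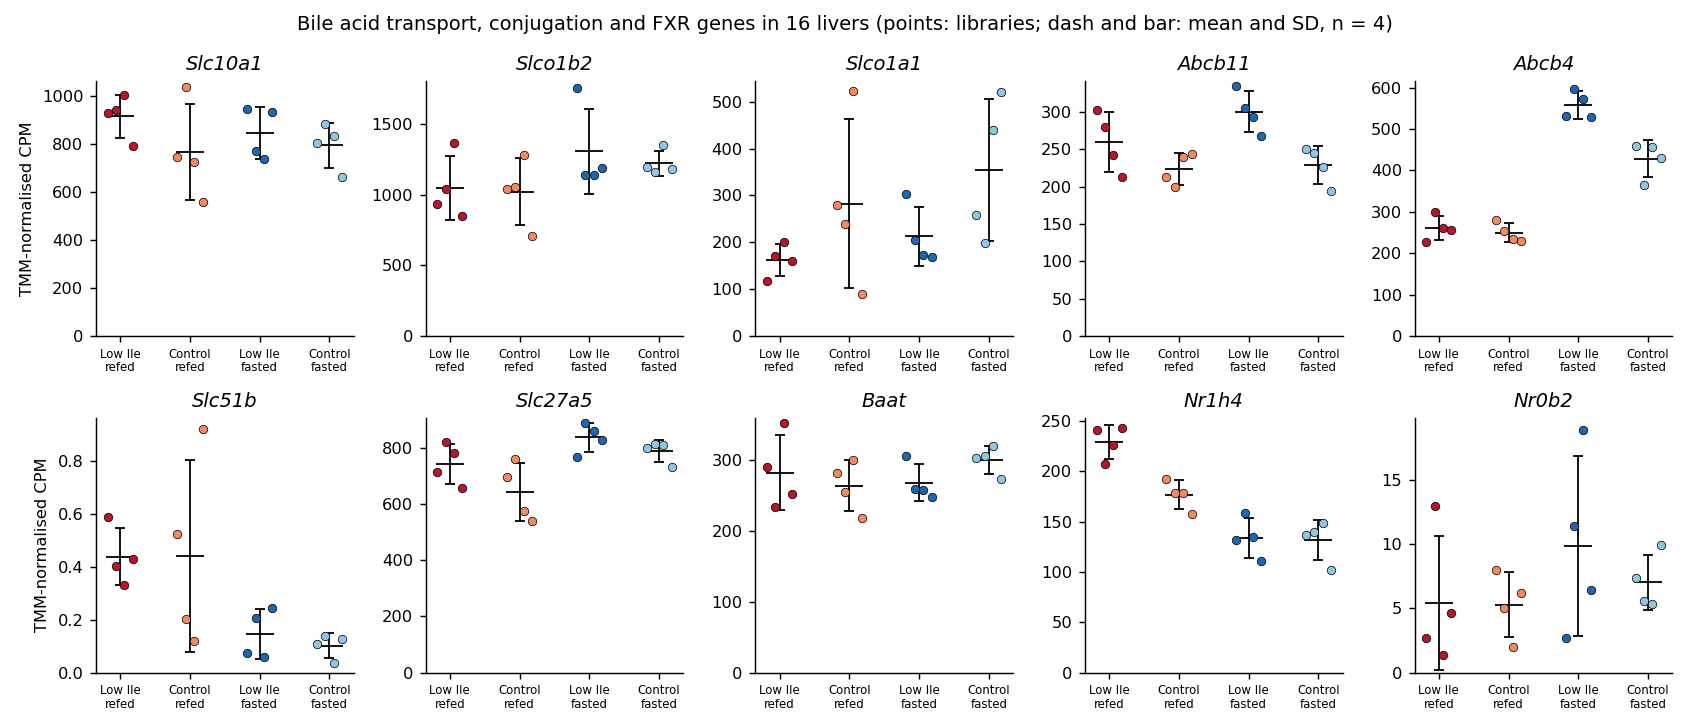
TMM-normalised CPM of the 10 genes in each of 16 livers, with low isoleucine refed, control refed, low isoleucine fasted and control fasted groups from left to right; the dash and bar are the mean and SD of 4 livers. Abcb4 is lower in refed than in fasted livers, Nr1h4 is higher, and Nr0b2 and Slco1a1 spread widely within groups.

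Abcb11, the bile salt export pump, did not pass with feeding, at 304, 281, 243 and 213 CPM in low isoleucine refed livers and 335, 306, 294 and 268 CPM in low isoleucine fasted livers. It was at 214, 199, 240 and 244 CPM in control refed livers and 251, 246, 226 and 195 CPM in control fasted livers. The groups overlapped on each diet. The log2 fold changes were -0.21 (95% interval -0.47 to 0.055, adjusted p = 0.261) on the low isoleucine diet and -0.034 (-0.30 to 0.23, adjusted p = 0.903) on the control diet. Since Abcb4 changed and Abcb11 did not pass, the ratio of their reads within each liver, which does not depend on scaling between libraries, was compared after these values had been seen. The log2 ratio of Abcb4 to Abcb11 averaged 0.01 ± 0.29 (SD, n = 4) after refeeding and 0.90 ± 0.15 (SD, n = 4) after fasting on the low isoleucine diet, a difference of -0.89. It averaged 0.15 ± 0.25 in control refed and 0.90 ± 0.25 in control fasted livers, a difference of -0.75. All refed livers lay below all fasted livers on each diet. The exact two-sided permutation p was 0.0286 on each diet, the smallest that 4 against 4 allows, and adjusted over the 8 tests of ratios it was 0.114 in each case. The pair was chosen from the feeding values of these same livers, so these p-values are no support for a change with feeding. Between diets the log2 ratio differed by -0.01 in fasted livers (exact permutation p = 1) and by -0.14 in refed livers (exact permutation p = 0.514).

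**Figure D3:**
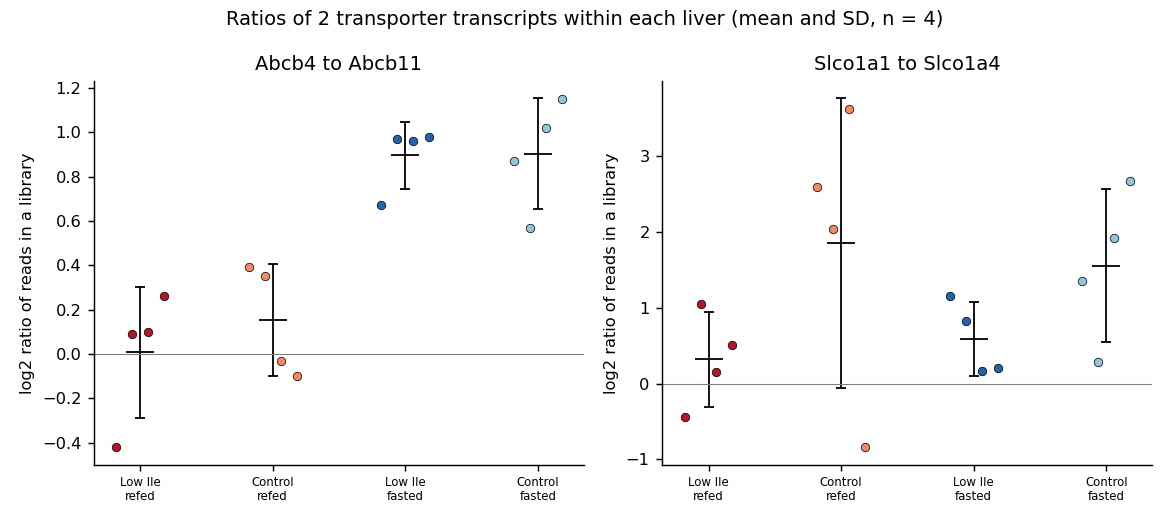
log2 ratio of reads within each liver for Abcb4 to Abcb11 (left) and Slco1a1 to Slco1a4 (right), with the mean and SD of 4 livers per group. The Abcb4 to Abcb11 ratio is lower in refed than in fasted livers on each diet, and the Slco1a1 to Slco1a4 ratio spreads most in control refed livers.

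None of the 3 uptake carriers passed with feeding. Slc10a1 (NTCP) ran from 789 to 1002 CPM in low isoleucine refed, 556 to 1037 CPM in control refed, 736 to 945 CPM in low isoleucine fasted and 661 to 881 CPM in control fasted livers. Its log2 fold change was 0.11 (95% interval -0.23 to 0.46) on the low isoleucine diet and -0.052 (-0.39 to 0.29) on the control diet, and neither passed (adjusted p = 0.68 and 0.884). Slco1b2, the main mouse relative of the human hepatic OATP1B carriers, ran from 850 to 1370 CPM in low isoleucine refed, 707 to 1284 CPM in control refed, 1142 to 1754 CPM in low isoleucine fasted and 1161 to 1356 CPM in control fasted livers. Its values were -0.32 (adjusted p = 0.256) and -0.26 (adjusted p = 0.397). Slco1a1 had -0.39 (adjusted p = 0.561) and -0.33 (adjusted p = 0.67), with 95% intervals of -1.27 to 0.49 and -1.21 to 0.55.

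The conjugation enzymes did not pass with feeding. Slc27a5, bile acyl-CoA synthetase, averaged 744 ± 72.4 CPM in low isoleucine refed and 838 ± 51.8 CPM in low isoleucine fasted livers, and 644 ± 103 CPM in control refed and 790 ± 39.5 CPM in control fasted livers (SD, n = 4 each). The log2 fold changes were -0.17 (adjusted p = 0.339) and -0.29 (adjusted p = 0.102). Without control refed library 2 the control value was -0.39 and passed (adjusted p = 0.0447). Baat, the acyltransferase, averaged 282 ± 52.7 CPM in low isoleucine refed and 268 ± 26.1 CPM in low isoleucine fasted livers, and 264 ± 35.6 CPM in control refed and 300.3 ± 19.8 CPM in control fasted livers. Its values were 0.075 (adjusted p = 0.745) and -0.19 (adjusted p = 0.392).

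Nr0b2 (SHP), the repressor that FXR induces, varied more among livers of a group than any other member in the low isoleucine groups, with a coefficient of variation of 96.3% after refeeding and 70.8% after fasting, against 47.5% and 30.3% in the control groups. It was at 2.67, 13, 1.38 and 4.68 CPM in low isoleucine refed livers, against 2.72, 11.5, 18.9 and 6.48 CPM in low isoleucine fasted livers. It was at 8, 5.04, 2 and 6.2 CPM in control refed livers, against 7.39, 5.56, 5.32 and 9.94 CPM in control fasted livers. The groups overlapped on each diet. The log2 fold changes were -0.87 (SE 0.639, adjusted p = 0.377) on the low isoleucine diet and -0.41 (SE 0.644, adjusted p = 0.743) on the control diet. The low isoleucine value was -1.77 (adjusted p = 0.0602) without low isoleucine refed library 2 and -0.35 (adjusted p = 0.762) without low isoleucine fasted library 3. The 95% intervals, -2.24 to 0.50 and -1.78 to 0.97, include large changes in either direction on the control diet and a large fall on the low isoleucine diet.

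**Figure D4:**
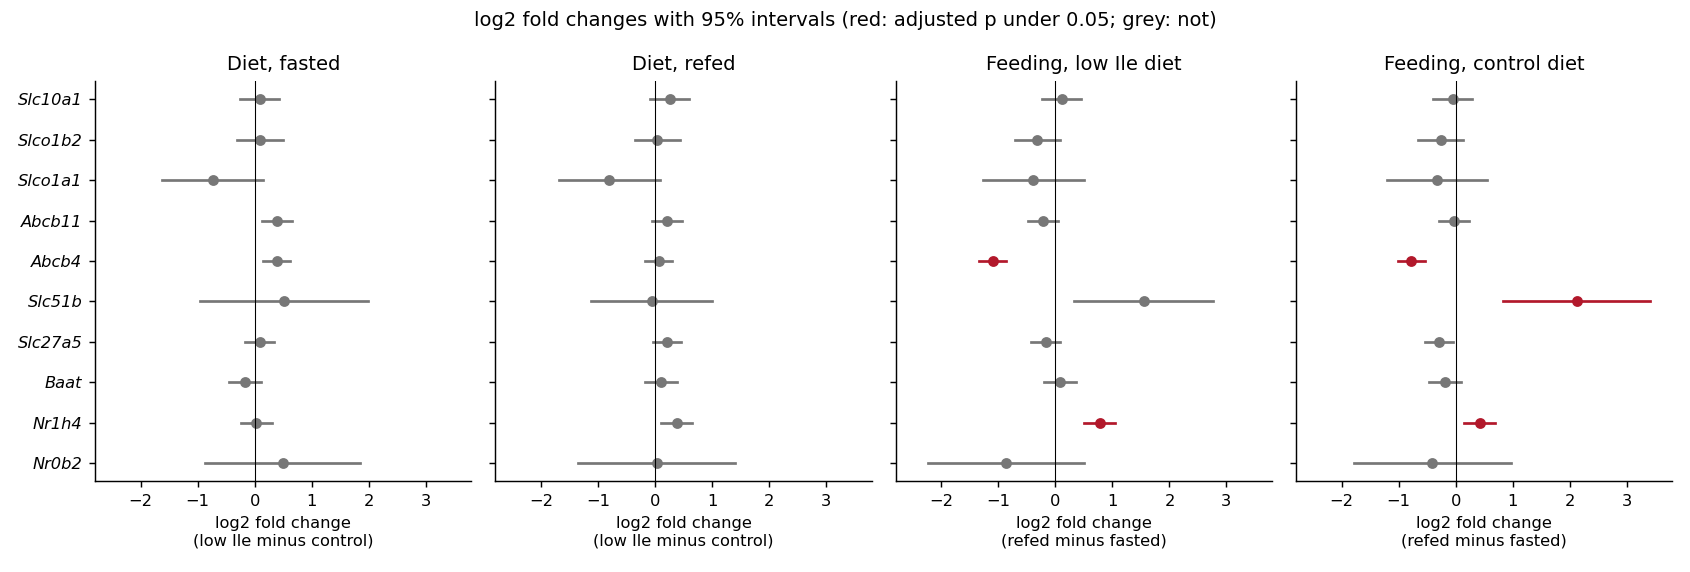
log2 fold changes with 95% intervals for the 10 genes in 4 comparisons (low isoleucine minus control in fasted and refed livers, refed minus fasted on each diet), with genes that passed an adjusted p of 0.05 in red. Abcb4 and Nr1h4 passed with feeding on each diet and Slc51b on the control diet, and no gene passed between diets.

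The diet comparison in fasted livers asked whether the low isoleucine diet altered these genes after a 16 h fast. By edgeR 0 of the 10 passed, where 0.771% of all genes passed. Both canalicular transporters were higher in every low isoleucine fasted liver than in any control fasted liver, a separation that 8.07% of all genes showed in either direction. Abcb4 was at 532, 597, 574 and 530 CPM in low isoleucine fasted livers and 460, 365, 457 and 431 CPM in control fasted livers, with a log2 fold change of 0.38 (SE 0.111, 95% interval 0.15 to 0.62, adjusted p = 0.145). Abcb11 was at 335, 306, 294 and 268 CPM in low isoleucine fasted livers and 251, 246, 226 and 195 CPM in control fasted livers, with a log2 fold change of 0.39 (SE 0.125, 95% interval 0.13 to 0.65, adjusted p = 0.198). These were the 2 members at an unadjusted p under 0.05, and DESeq2 called Abcb4 (adjusted p = 0.0192) but not Abcb11 (adjusted p = 0.0604), while limma-voom called 0. The summed hepatocyte markers were at 110800 to 130500 CPM in low isoleucine fasted and 76990 to 113700 CPM in control fasted livers, which overlap, and the Kupffer cell and macrophage markers at 195 to 298 CPM in low isoleucine fasted and 308 to 396 CPM in control fasted livers, which do not. Their part in the canalicular values was not tested. Slc10a1 (0.091), Slco1b2 (0.094), Nr1h4 (0.024), Slc27a5 (0.086) and Baat (-0.17) had log2 fold changes near 0, and Nr0b2 (0.49) and Slc51b (0.51) had standard errors of 0.635 and 0.695. In the authors' deposited table for fasted livers all 10 genes are listed and 0 passed, with adjusted p-values from 0.243 (Abcb11) to 0.988 (Nr1h4).

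In refed livers none of the 10 genes passed between diets by edgeR, where 0.174% of all genes passed. Nr1h4 was at 241, 207, 226 and 243 CPM in low isoleucine refed livers and 193, 178, 178 and 158 CPM in control refed livers. Every low isoleucine refed liver lay above every control refed liver, as 4.44% of all genes did in either direction. The log2 fold change was 0.38 (SE 0.128, 95% interval 0.11 to 0.65, adjusted p = 0.331), and 0.31 (adjusted p = 0.403) without control refed library 4. No other member reached an unadjusted p of 0.05, and neither DESeq2 nor limma-voom called any of the 10. Abcb11 (0.21, adjusted p = 0.608), Slc10a1 (0.26, adjusted p = 0.65) and Slc27a5 (0.21, adjusted p = 0.596) had positive values, and Abcb4 was at 0.064 (adjusted p = 0.895). Baat was at 0.097 (adjusted p = 0.862) and Nr0b2 at 0.029 (adjusted p = 0.995). Without control refed library 4 the Slc10a1 value was 0.12, that of Slc51b was 0.63 in place of -0.058, and that of Slco1b2 was -0.12 in place of 0.038, none of which passed. In the authors' deposited table for refed livers 0 of the 10 genes passed, with adjusted p-values from 0.302 (Nr1h4) to 0.995 (Nr0b2).

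Slco1a1, an uptake carrier that is male-predominant in mouse liver, had the largest negative diet value of the members in each feeding state. It was at 118, 170, 202 and 160 CPM in low isoleucine refed livers and 280, 239, 523 and 88.9 CPM in control refed livers. It was at 304, 205, 172 and 170 CPM in low isoleucine fasted livers and 259, 199, 439 and 521 CPM in control fasted livers. The groups overlapped in both states, and the lowest of the 16 values was that of control refed library 4. The log2 fold changes were -0.80 in refed livers (SE 0.416, adjusted p = 0.563) and -0.74 in fasted livers (SE 0.415, adjusted p = 0.576). Averaged over both states the value was -0.77 (95% interval -1.40 to -0.14, adjusted p = 0.233), which became -0.93 and passed when control refed library 4 was left out (adjusted p = 0.0446). The other 17 male-biased liver genes on the list, all of them in the table, had a summed level of 7061 to 18910 CPM in low isoleucine refed, 12250 to 71370 CPM in control refed, 8691 to 28200 CPM in low isoleucine fasted and 36270 to 59180 CPM in control fasted livers. The 12250 CPM was that of control refed library 4, and the other control refed livers were at 25520 to 71370 CPM. Part of that list was chosen with the diet result of these livers known. Its part in the Slco1a1 values was not tested. Slco1a4, a neighbouring carrier that is female-predominant in mouse liver, averaged 134 ± 45.2 CPM in low isoleucine refed and 76.5 ± 55.4 CPM in control refed livers, and 138 ± 16.2 CPM in low isoleucine fasted and 116 ± 35.1 CPM in control fasted livers (SD, n = 4 each). It did not pass, with log2 fold changes of 0.81 in refed livers (adjusted p = 0.504) and 0.25 in fasted livers (adjusted p = 0.892). The log2 ratio of Slco1a1 to Slco1a4 averaged 0.32 ± 0.63 in low isoleucine refed and 1.85 ± 1.91 in control refed livers, and 0.59 ± 0.48 in low isoleucine fasted and 1.56 ± 1.01 in control fasted livers. The differences of -1.53 (exact permutation p = 0.2) and -0.97 (exact permutation p = 0.114) did not pass, with adjusted p = 0.4 and 0.304 over the 8 tests of ratios. In these tests even the Abcb4 to Abcb11 ratio with feeding, which had no overlap, did not pass after adjustment. Not passing therefore says little about the Slco1a1 to Slco1a4 ratio. Control refed library 4 had a log2 ratio of -0.84, below every low isoleucine refed liver, while the other 3 control refed livers, at 2.04 to 3.62, lay above them all. Without it the refed difference was -2.43, and without control refed library 3 it was -0.94. The fasted difference was -0.59 without control fasted library 4. Slco1a1 and Slco1a4 are similar neighbours, and the division of reads between them is uncertain.

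Averaged over both feeding states, none of the 10 genes passed between diets by edgeR, where 1.51% of all genes passed. There were 4 members at an unadjusted p under 0.05, namely Abcb11 (log2 fold change 0.30, 95% interval 0.12 to 0.49, adjusted p = 0.102), Abcb4 (0.22, 0.057 to 0.39, adjusted p = 0.186), Slco1a1 (above) and Nr1h4 (0.20, 0.0096 to 0.39, adjusted p = 0.318). DESeq2 called Abcb11 (adjusted p = 0.0267) and limma-voom called 0. The other members were at 0.17 (Slc10a1), 0.23 (Slc51b), 0.066 (Slco1b2), 0.26 (Nr0b2), 0.15 (Slc27a5) and -0.034 (Baat), with adjusted p from 0.459 to 0.921. The test of whether the diet effect differed between feeding states called 0 of the 10 genes and 0% of all genes by edgeR, with 0 members and 928 genes at an unadjusted p under 0.05, and 0 members by DESeq2 or limma-voom, although DESeq2 called 35 genes. For Nr1h4, which separated the diets after refeeding and not after fasting, this difference was 0.35 (SE 0.181, adjusted p = 0.825), and for Abcb4 it was -0.32 (SE 0.157, adjusted p = 0.816). It was 0.16 for Slc10a1, -0.18 for Abcb11, -0.57 for Slc51b, -0.056 for Slco1b2, -0.062 for Slco1a1, -0.46 for Nr0b2, 0.26 for Baat and 0.12 for Slc27a5, with adjusted p from 0.925 to 1. A diet effect in 1 feeding state alone was therefore not shown for these genes. The diet and feeding comparisons share groups, so their values for a gene are not independent.

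Other genes of the pathway were read against the shares of all genes that passed by edgeR, 21.4% with feeding on the low isoleucine diet and 17.1% on the control diet. Among bile acid synthesis genes 5 of 15 tested fell and 0 rose on the low isoleucine diet, and 5 fell and 1 rose on the control diet, 3 of them lower on both. The medians were -0.33 and -0.27, against 0.02 and 0.013 over all genes. Cyp8b1, the sterol 12-alpha-hydroxylase that makes cholic acid, was at 307, 495, 446 and 439 CPM in low isoleucine refed livers, against 832, 1010, 1019 and 1105 CPM in low isoleucine fasted livers. It was at 710, 656, 430 and 207 CPM in control refed livers, against 1078, 855, 1236 and 1224 CPM in control fasted livers. Its log2 fold changes were -1.23 (adjusted p = 0.0048) and -1.13 (adjusted p = 0.0103). Slc27a2, the very long-chain acyl-CoA synthetase, fell by 0.49 and 0.52 on the log2 scale (adjusted p = 0.00698 and 0.00647), and Hsd17b4, a peroxisomal enzyme of side-chain oxidation, fell by 0.52 and 0.35 (adjusted p = 0.0034 and 0.0396), on the low isoleucine and the control diet in that order. Cyp7a1, the rate-limiting enzyme of the classical pathway, averaged 392 ± 188 CPM in low isoleucine refed and 232 ± 64.2 CPM in low isoleucine fasted livers, and 293 ± 81.8 CPM in control refed and 199 ± 99.6 CPM in control fasted livers (SD, n = 4 each). It did not pass (log2 fold changes 0.76 and 0.56, adjusted p = 0.167 and 0.354). Cyp39a1, an oxysterol 7-alpha-hydroxylase, fell on the low isoleucine diet (-0.78, adjusted p = 0.021), against -0.28 on the control diet (adjusted p = 0.453). Cyp27a1, the sterol 27-hydroxylase of the alternative pathway, fell on the control diet (-0.45, adjusted p = 0.0499) with overlapping groups, against -0.13 on the low isoleucine diet (adjusted p = 0.611). Cyp2c70, which makes muricholic acids in mice, rose on the control diet (1.72, adjusted p = 0.0484) with overlapping groups, against 1.19 on the low isoleucine diet (adjusted p = 0.147).

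Of 10 other canalicular transport genes 1 rose and 3 fell on the low isoleucine diet, and 2 rose and 3 fell on the control diet, where 21.4% and 17.1% of all genes passed in either direction. Abcg8, which with Abcg5 exports cholesterol into bile, averaged 40.7 ± 10.7 CPM in low isoleucine refed and 94 ± 9.84 CPM in low isoleucine fasted livers (log2 fold change -1.21, adjusted p = 0.00134). It averaged 34.6 ± 12.7 CPM in control refed and 86.9 ± 11.5 CPM in control fasted livers (-1.33, adjusted p = 0.000892). Abcg5 fell with it, by 0.79 (adjusted p = 0.00433) and 0.91 (adjusted p = 0.00228) on the log2 scale. Abcb1a, a multidrug exporter, rose by 0.93 (adjusted p = 0.00981) and 0.78 (adjusted p = 0.0331). Atp8b1, a phospholipid flippase, rose on the control diet (0.59, adjusted p = 0.00672), against 0.29 on the low isoleucine diet (adjusted p = 0.142). Tmem30a, its partner subunit, fell on the low isoleucine diet (-0.56, adjusted p = 0.0305), against -0.41 on the control diet (adjusted p = 0.122). Of 6 other sinusoidal transporters tested 0 passed on the low isoleucine diet, and Abcc3, a basolateral exporter of bile acids and glucuronides, was the 1 that fell on the control diet (-0.68, adjusted p = 0.0394), against -0.18 (adjusted p = 0.615) on the low isoleucine diet. Slco1a4 was at -0.044 (adjusted p = 0.954) on the low isoleucine diet and -0.59 (adjusted p = 0.321) on the control diet. Of 7 other conjugation and acyltransferase genes 2 fell on the low isoleucine diet, Acot1 (-1.90, adjusted p = 0.00431) and Acot12 (-0.83, adjusted p = 2.89e-05), and 1 on the control diet, Acot12 (-0.83, adjusted p = 5.02e-05). Acot1 was at -1.04 on the control diet (adjusted p = 0.0959).

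Among the partners and regulators of FXR 6 of 16 fell and 3 rose on the low isoleucine diet, and 6 fell and 0 rose on the control diet, 5 of them lower on both (medians -0.43 and -0.38). Of all genes 21.4% and 17.1% passed in these comparisons. Rxra, the partner of FXR in DNA binding, averaged 235 ± 31.3 CPM in low isoleucine refed and 378 ± 67.4 CPM in low isoleucine fasted livers, and 251 ± 63.1 CPM in control refed and 403 ± 46.2 CPM in control fasted livers (SD, n = 4 each). It fell by 0.69 on the log2 scale on each diet (adjusted p = 0.00939 and 0.0124), while Nr1h4 rose. Ppargc1a, a coactivator induced by fasting, averaged 4.64 ± 1.14 CPM in low isoleucine refed and 16.3 ± 5.21 CPM in low isoleucine fasted livers, and 5.02 ± 2.05 CPM in control refed and 17.2 ± 7.53 CPM in control fasted livers. Its log2 fold changes were -1.81 (adjusted p = 0.00102) and -1.76 (adjusted p = 0.00156). Foxo1 fell by 0.97 (adjusted p = 0.000382) and 0.70 (adjusted p = 0.00551), on the low isoleucine and the control diet in that order. Hnf4a fell on the low isoleucine diet (-0.71, adjusted p = 0.00553), against -0.38 on the control diet (adjusted p = 0.127). Fgfr4, the FGF15 receptor, rose on the low isoleucine diet with overlapping groups (0.80, adjusted p = 0.0208), against 0.58 on the control diet (adjusted p = 0.103). Klb, on the same list, fell without overlap on the low isoleucine (-0.70, adjusted p = 0.00208) and the control diet (-0.56, adjusted p = 0.0122). Klb is named here after its values were seen. Nr1i2, the pregnane X receptor, fell on the control diet (-0.62, adjusted p = 0.0139), against -0.41 on the low isoleucine diet (adjusted p = 0.0804).

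**Figure D5:**
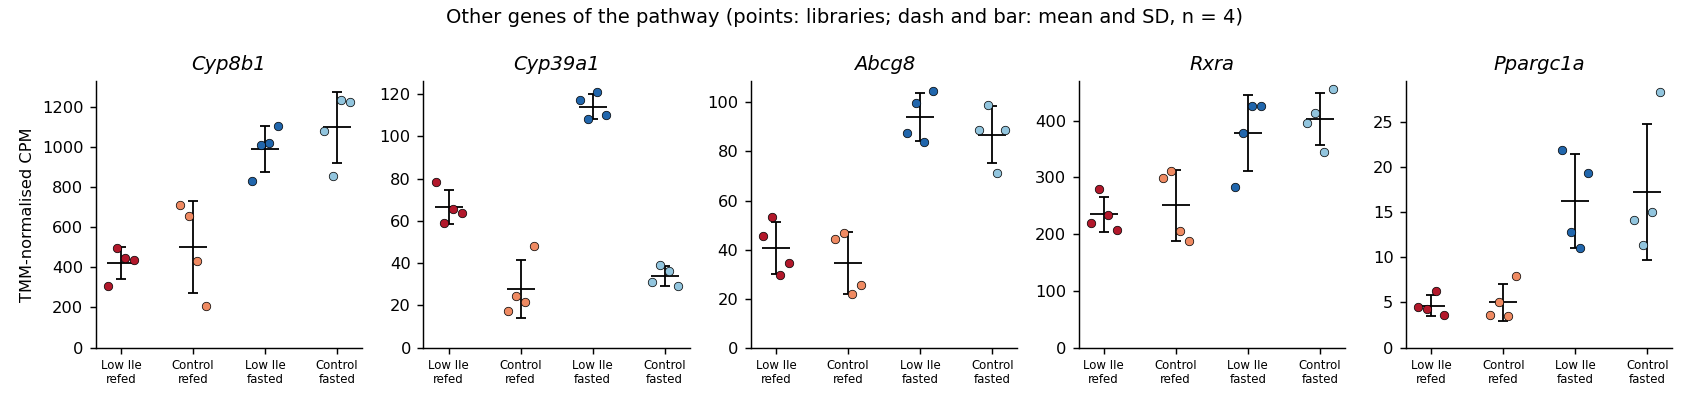
TMM-normalised CPM of 5 other genes of the pathway in each of 16 livers, with the mean and SD of 4 livers per group. Cyp8b1, Abcg8, Rxra and Ppargc1a have lower means in refed than in fasted livers on each diet, and Cyp39a1 is higher in low isoleucine than in control livers in each feeding state.

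Between diets 3 other genes of the pathway passed by edgeR in fasted livers and 1 in refed livers, where 0.771% and 0.174% of all genes passed. These are from 5 lists with 15, 6, 10, 7 and 16 genes tested. The lists were chosen with earlier results of these data known, so the counts are no support for a share above that of all genes. Cyp39a1 averaged 66.6 ± 8.18 CPM in low isoleucine refed and 27.8 ± 13.7 CPM in control refed livers, and 114 ± 5.89 CPM in low isoleucine fasted and 34 ± 4.60 CPM in control fasted livers (SD, n = 4 each). It rose on the low isoleucine diet in both states, with log2 fold changes of 1.26 in refed livers (adjusted p = 0.0341) and 1.75 in fasted livers (adjusted p = 0.00717). Acnat2, a peroxisomal acyltransferase related to Baat, rose in fasted livers, to 111 ± 28.2 CPM on the low isoleucine diet, against 32.7 ± 12.2 CPM on the control diet (log2 fold change 1.77, adjusted p = 0.033). In refed livers it was at 87.9 ± 18.9 and 55 ± 30.9 CPM (0.68, adjusted p = 0.554), and the interaction test of Acnat2 did not pass by edgeR (-1.09, adjusted p = 0.793), DESeq2 or limma-voom. Acnat2 has a similar neighbour in Acnat1, so its share of reads is uncertain. Nr1h5, a second FXR gene that binds lanosterol in mice, was scarce, at 2.83 ± 0.307 CPM in low isoleucine fasted and 4.71 ± 0.562 CPM in control fasted livers (-0.73, adjusted p = 0.0467, against 0.0607 by limma-voom). In refed livers Nr1h5 did not pass, with overlapping groups (-0.215, adjusted p = 0.707 by edgeR). Its interaction did not pass either (0.519, adjusted p = 0.793 by edgeR). By edgeR 0 of the other sinusoidal or canalicular transporters passed between diets in either state. DESeq2 also called Slc22a7, an organic anion transporter, in fasted livers (log2 fold change -1.34, adjusted p = 0.0497, against 0.235 by edgeR and 0.353 by limma-voom), and Scp2, a sterol carrier and thiolase, in refed livers (-0.34, adjusted p = 0.045, against 0.308 by edgeR). Both are named here after their values were seen. Slc22a7 was at 6.36 ± 1.37 CPM in low isoleucine fasted and 16.1 ± 6.21 CPM in control fasted livers, with no overlap, as for 8.07% of all genes in either direction. Cyp7a1 had 0.42 in refed livers (adjusted p = 0.762) and 0.22 in fasted livers (adjusted p = 0.91), Cyp8b1 had -0.25 (adjusted p = 0.822) and -0.15 (adjusted p = 0.925), and Abcc3 had 0.22 (adjusted p = 0.786) and -0.28 (adjusted p = 0.725). Averaged over both states Cyp39a1 (1.5, adjusted p = 0.000244), Acnat2 (1.22, adjusted p = 0.0206) and Nr1h5 (-0.47, adjusted p = 0.0483) passed by edgeR. The averaged values were 0.32 for Cyp7a1, -0.20 for Cyp8b1, 0.53 for Slco1a4 and -0.028 for Abcc3 (adjusted p from 0.384 to 0.961). Their interactions were 0.20, -0.099, 0.55 and 0.50 in the same order (adjusted p from 0.889 to 1).

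The genes whose pattern over the 16 libraries lay closest to a member that passed were found by the root mean square difference of log2 CPM after centring each gene. For Abcb4, whose own values had a root mean square of 0.505 log2 units about their mean, they were Aaed1 (0.097), Hsdl2 (0.133) and Rab9 (0.134). Aaed1 averaged 46.6 CPM in low isoleucine refed, 47 CPM in control refed, 110 CPM in low isoleucine fasted and 79.4 CPM in control fasted livers. For Nr1h4 (0.367) they were Clcn6 (0.151), Pum3 (0.166) and Dus2 (0.168). For Slc51b (0.916) they were Kcnk10 (0.513), Actb (0.532) and Sigirr (0.575), a much looser likeness. These are descriptions of likeness in 16 livers.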

How the data were processed

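RNA was measured in 16 mouse livers, 4 in each of 4 groups, with stranded poly(A) mRNA libraries whose lanes were merged before expression estimation, per the labels' protocols. The deposited table holds expected counts per gene, made by the authors with RSEM going by its name, and 10.2% of values were not whole. The authors' deposited comparison tables list per gene a log2 fold change, p-values, an F statistic (a score) and a mean log2 CPM for low isoleucine against control livers. Per the submitters' processing notes, R 3.5.3 with limma and edgeR was used. The aligner, genome build and annotation of the counts were not given in the sources used here.

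Expected counts were rounded. Symbols were matched for 51633 of 51912 identifiers through GENCODE M21. The filter on low counts was filterByExpr with a minimum count of 10 and a minimum total of 15, passed by 14920 genes. Counts were scaled by TMM and fitted with edgeR 4.0.16 in R 4.3.3, using its robust quasi-likelihood test on 1 mean per group over 16 libraries, with Benjamini-Hochberg adjustment over all genes tested and a threshold of 0.05. Each standard error is the absolute log2 fold change over the root of the F statistic. Alternatives were DESeq2 1.42.0, limma-voom (limma 3.58.1), library size alone, other filters, only the compared groups, a replicate block and leaving out each library. The test was also run on simulated data for the diet effect in fasted livers alone. The outcome is not given here, so it does not show whether small changes would be called. Single ratios were tested by exact two-sided permutation.

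The genes, the other pathway lists and the marker lists were chosen with earlier results of these data known, and the 2 ratios after the values were seen. All 10 members are named in every comparison, as are Cyp7a1, Cyp8b1, Abcc3 and Slco1a4 and, by its reads alone, Slc51a, and from each pathway list up to 4 genes that passed, by the largest absolute log2 fold change. Slc27a2, Hsd17b4 and the other named list genes follow that rule in at least 1 comparison, apart from Klb, Slc22a7 and Scp2. For each member that passed, the 3 most alike genes are named, leaving out genes that average under 1 CPM or have a provisional name. No library pair held identical values, and columns of other samples numbered 0.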

Additional observations from a re-analysis of the deposited data

Results flagged for a closer look

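Slco1b2 was at 1754 CPM in low isoleucine fasted library 1, while the other 3 livers of that group lay between 1142 and 1189 CPM. The gap was 0.924 of the group's range, above Dixon's 95% critical value for 4 samples. It was the only flag in 40 groups of values, and chance flags about 1 in 20 groups. Without that library the diet value of Slco1b2 in fasted livers was -0.08 on the log2 scale, in place of 0.094, and neither passed.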

How the results depend on the processing

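Abcb4 fell with feeding in all 27 alternatives on each diet, by 0.99 to 1.17 log2 units on the low isoleucine diet and 0.67 to 0.85 on the control diet. Nr1h4 rose on the low isoleucine diet in all 27 (0.69 to 0.89). The number of members called was 1 by DESeq2, in place of 0, for the diet in fasted livers and averaged over feeding states, and 0 to 1 for the average when single libraries were left out. For feeding on the control diet it was 1 with only the compared groups, where Slc51b was not tested. It was 1 to 3 there without single libraries, in place of 3.

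Values that changed sign had not passed before and did not pass after. For feeding on the control diet, library size alone gave 0.05 for Slc10a1 and 0.09 for Abcb11. By limma-voom Slc51b was 0.25 and Nr0b2 -0.32 between diets in refed livers, Nr0b2 was -0.05 averaged over states, and the Slco1a1 interaction was 0.09. Leaving out single libraries gave the following ranges across 0. Between diets in fasted livers they were -0.08 to 0.15 for Slco1b2, -0.08 to 0.1 for Nr1h4, -0.03 to 0.8 for Nr0b2 and -0.12 to 0.08 for the Abcb4 to Abcb11 ratio. In refed livers they were -0.01 to 0.13 for Abcb4, -0.35 to 0.63 for Slc51b, -0.12 to 0.17 for Slco1b2, -0.87 to 0.35 for Nr0b2 and -0.03 to 0.18 for Baat. Averaged, they were -0.02 to 0.13 for Slco1b2, -0.19 to 0.42 for Nr0b2 and -0.1 to 0.01 for Baat. For feeding they were -0.05 to 0.16 for Baat on the low isoleucine diet, and on the control diet -0.23 to 0.07 for Slc10a1, -0.11 to 0.02 for Abcb11 and -0.29 to 1.19 for the Slco1a1 to Slco1a4 ratio. For the interaction they were -0.86 to 0.12 for Slc51b, -0.21 to 0.12 for Slco1b2, -0.37 to 0.42 for Slco1a1 and -1.36 to 0.06 for Nr0b2. The cause was not tested.

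After centring on group means, 7 of 24 same-mark pairs of livers correlated above 0.1 (range -0.32 to 0.32). Pairs of different marks were not compared, so this cannot decide whether the replicate marks pair the livers. With a replicate block by the mark, Slc51b was 0.18 and Nr0b2 -0.18 between diets in refed livers, and Slc51b passed with feeding on the low isoleucine diet (1.65, adjusted p = 0.0288). Counts over all genes ran, without single libraries, from 6 to 222 for the diet in fasted livers (115 with all), 3 to 89 in refed livers (26), 115 to 473 averaged (226), 2423 to 3601 for feeding on the low isoleucine diet (3194), 1817 to 2743 on the control diet (2552) and 0 to 1 for the interaction (0). Under other settings they ran from 77 to 371, 3 to 179, 186 to 603, 2583 to 3639, 1729 to 2980 and 0 to 35 in the same order. With a filter of at least 1 CPM Slc51b was not tested. With only the compared groups, it was not tested for feeding on the control diet or for the diet in fasted livers. Its 1 to 8 reads in fasted livers limit any change of it.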
